A study of Mus musculus with 9 samples.

Results

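The genes described here act in homologous recombination, the Fanconi anaemia pathway and the DNA damage checkpoint, and they were read in mouse LSK cells, the lineage-negative, Sca-1-positive, Kit-positive bone marrow fraction that holds haematopoietic stem and multipotent progenitor cells. They were chosen by name, 34 genes in all, each read by 1 array probe, the brightest of those that exceeded background on all 3 arrays of some group. Of the 34, 32 were measured, among 13122 genes measured in all. Rad51c had no probe that its RefSeq accession named, and the only Fancd2 probe was well above background on 1 of 9 arrays, so neither has a value here. Each measured member exceeded background clearly on all 9 arrays, so the filter on dim probes chose none of them by a difference between groups.

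All 9 samples were LSK cells of C57BL/6 mice, transduced with a GFP-marked vector, transplanted and sorted again, with 3 samples in each of 3 groups. The groups carried the empty vector (EV), wild-type DNMT3A (WT) or DNMT3A R882H, the substitution that recurs in acute myeloid leukaemia in this DNA methyltransferase. The empty vector arm shares the transduction and the transplant with the others. The vector's promoter is not stated in the labels, and nothing in the labels says that the samples of a group came from separate mice, so the p-values rest on a spread that may be technical. Kit and Ly6a, which encode the sorting markers Kit and Sca-1, were well above background on all 9 arrays. Levels here are log2 signal minus the 75th percentile of the same array, and they can be compared between arrays but not between genes. The Dnmt3a probe had levels of 1.40 ± 0.30 in the R882H group, 1.22 ± 0.70 in the wild-type group and 1.03 ± 0.47 in the empty vector group (SD, n = 3). Whether it reads the transgene is not stated in the labels, so it does not test them.

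The labels of the arrays bear on every comparison. Of the 9 columns of the authors' deposited value table, 2 held the values of the array filed under the same sample and 7 held those of another sample's array, 4 of them from another group. In the deposited sample order the columns held empty vector replicates 1 to 3, then those of R882H, then those of wild type. By the table's names the R882H group thus held R882H replicates 2 and 3 with wild-type replicate 3. The wild-type group held empty vector replicate 3, R882H replicate 1 and wild-type replicate 2. The empty vector group held empty vector replicates 1 and 2 with wild-type replicate 1. The names of the scanner files were followed, and each main comparison is also given by the names of that table. The 3 empty vector arrays and wild-type replicate 1 lay on 1 slide, wild-type replicates 2 and 3 with R882H replicates 1 and 2 on another, and R882H replicate 3 on its own.

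Homologous recombination repairs a double-strand break by copying an intact sister chromatid: the MRE11-RAD50-NBN complex and CtIP open the end, BRCA1 and BARD1 favour this route, and PALB2 and BRCA2 act in the later search for the template. The Fanconi pathway acts on crosslinked DNA, where a core complex attaches ubiquitin to FANCD2 and FANCI, while ATM and ATR signal through CHK2 and CHK1 to hold the cell cycle. Blood stem cells depend on these pathways, and inherited loss of Fanconi genes causes bone marrow failure.

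The 6 members with an unadjusted p under 0.05 between R882H and wild-type DNMT3A are shown by the 250 bases upstream of their RefSeq start sites, on GRCm38.p6 and read 5′ to 3′ on the strand of the gene. Capitals mark CCAAT, the letters bound by NF-Y, or the E2F letters TTTCCCGC, TTTGGCGC, TTTCGCGC and TTTGCCGC, either on either strand.
Fancb, chrX:164980342-164980591, plus strand: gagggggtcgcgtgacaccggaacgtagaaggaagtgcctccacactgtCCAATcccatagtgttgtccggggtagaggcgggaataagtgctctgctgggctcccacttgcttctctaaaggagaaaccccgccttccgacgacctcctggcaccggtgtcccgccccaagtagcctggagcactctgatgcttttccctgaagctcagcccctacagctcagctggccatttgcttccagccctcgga
Palb2, chr7:122132947-122133196, minus strand: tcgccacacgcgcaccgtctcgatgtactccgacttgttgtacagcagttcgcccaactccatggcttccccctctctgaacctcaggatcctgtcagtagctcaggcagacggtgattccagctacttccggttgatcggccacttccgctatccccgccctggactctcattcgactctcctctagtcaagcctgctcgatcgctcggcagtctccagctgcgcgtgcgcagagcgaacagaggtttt
Brca2, chr5:150522371-150522620, plus strand: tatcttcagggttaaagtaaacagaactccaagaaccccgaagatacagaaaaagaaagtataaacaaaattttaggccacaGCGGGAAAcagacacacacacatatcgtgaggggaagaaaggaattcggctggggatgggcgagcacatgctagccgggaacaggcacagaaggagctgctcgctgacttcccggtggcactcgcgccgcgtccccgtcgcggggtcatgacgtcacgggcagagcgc
Fance, chr17:28313280-28313529, plus strand: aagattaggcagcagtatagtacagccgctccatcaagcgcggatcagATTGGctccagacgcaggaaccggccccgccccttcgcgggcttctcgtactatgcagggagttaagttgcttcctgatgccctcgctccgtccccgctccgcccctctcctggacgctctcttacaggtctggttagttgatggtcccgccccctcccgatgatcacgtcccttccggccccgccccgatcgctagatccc
Xrcc3, chr12:111813880-111814129, minus strand: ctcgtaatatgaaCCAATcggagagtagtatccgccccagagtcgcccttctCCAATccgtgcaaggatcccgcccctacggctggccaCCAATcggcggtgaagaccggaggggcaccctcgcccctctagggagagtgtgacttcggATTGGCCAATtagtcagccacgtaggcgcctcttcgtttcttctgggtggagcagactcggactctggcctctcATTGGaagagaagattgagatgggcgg
Msh6, chr17:87974800-87975049, plus strand: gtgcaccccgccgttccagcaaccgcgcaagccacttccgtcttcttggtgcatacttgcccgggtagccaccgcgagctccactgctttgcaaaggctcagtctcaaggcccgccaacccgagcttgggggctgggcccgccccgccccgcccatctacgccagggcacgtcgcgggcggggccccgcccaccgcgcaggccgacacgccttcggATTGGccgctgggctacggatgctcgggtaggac

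Of these 6 upstream stretches, 1 held E2F letters (Brca2), 4 held CCAAT letters, 6 times in Xrcc3, and that of Palb2 held neither. Promoters were found for 26 of the 34 members, 28 in all since Rad51c and Rad54l had a pair each. E2F letters stood in 5 of the 28 (17.9%), those of Bard1, Brca2, Chek2, Fancg and Xrcc6, against 3.11% of 13269 promoters of measured genes and 1.86% of all 32851 promoters. CCAAT letters stood in 17 of the 28 (60.7%), against 35.2% and 33.8%. The letters TTTGAA, the core of the CHR element of mitotic genes, stood in 1 of the 28 (3.57%), that of Bard1, against 11.1% and 16.0%. These shares are a description, with no test, and a match is not a site of binding.

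No member passed the adjusted threshold in any of the 3 comparisons. Neither did any of the 13122 genes (limma with Benjamini-Hochberg adjustment, 0% called). Of the members' means 26 of 32 were lower with R882H than with wild-type DNMT3A, 24 of 32 were higher with the wild-type enzyme than with the vector alone, and 20 of 32 were lower with R882H than with empty vector. Over all genes the same shares were 51.8%, 51.6% and 52.2%. The median log2 difference of the members was -0.24 for R882H minus wild type, 0.14 for wild type minus empty vector and -0.064 for R882H minus empty vector, beside -0.014, 0.011 and -0.018 over all genes. Each pair of comparisons shares the arrays of 1 group, so they are not independent. By the names of the authors' deposited value table the medians were 0.025, -0.049 and -0.033 in the same order. There 15 of 32 members were lower with R882H than with wild-type DNMT3A. By the scanner files' names each of those groups mixed arrays of different groups, so these values do not check the order of the groups. Which labels are right was not tested.

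Array by array, the median over the members of level minus the gene's mean was 0.25, 0.17 and 0.040 on wild-type replicates 1, 2 and 3. It was -0.0024, -0.013 and 0.024 on the empty vector arrays and -0.15, -0.14 and -0.055 on the R882H arrays in the same order. These medians did not overlap between groups, but wild type and empty vector came close at replicate 3. Over all genes the same median was 0.039 on wild-type replicate 3 and 0.018 on empty vector replicate 3. On those arrays the members' medians were thus near those of all genes. Wild-type replicate 1 was the highest of the 9 arrays for 12 of 32 members and for 10.5% of all genes. R882H replicate 1 was the lowest for 10 of 32 members and for 10.04% of all genes. Without wild-type replicate 1 the median for R882H minus wild type was -0.16.

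**Figure D1:**
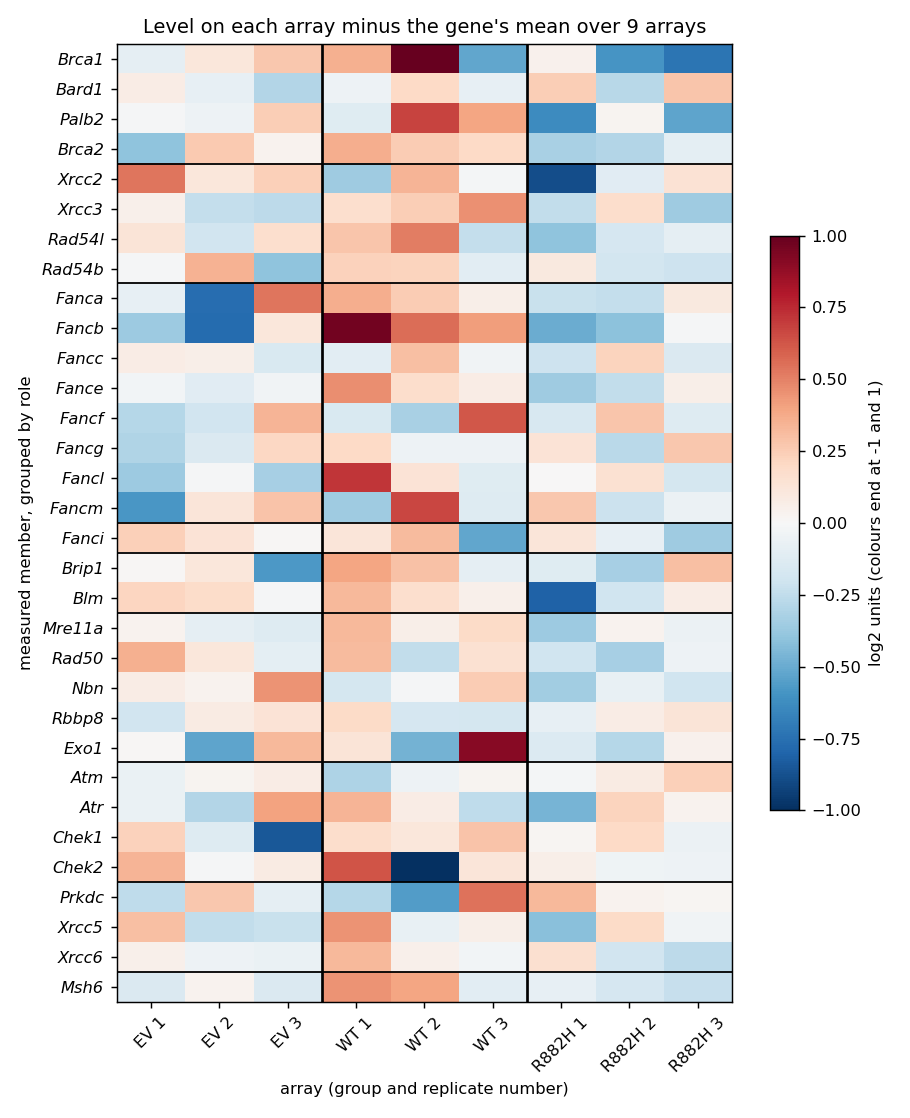
Heat map of the level of each of the 32 measured members (rows, grouped by role, lines between roles) on each of the 9 arrays (columns), as log2 units from the gene's mean over the arrays, with colours ending at -1 and 1. Red cells gather on wild-type replicates 1 and 2 and blue cells on R882H replicate 1, where 10 of 32 members had their lowest value.

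R882H set against wild-type DNMT3A addresses the substitution itself. Here 6 of 32 members had an unadjusted p under 0.05 with limma, all lower with R882H, and none higher. Of all genes 8.04% met this threshold, 4.39% lower and 3.65% higher. The members' count was 2 without wild-type replicate 1 or without R882H replicate 1, and 3 without replicate 2 of either group. On 4 members the arrays of these groups did not overlap, all lower with R882H: Brca2, Fancb, Fance and Mre11a. Of all genes 15.5% did not overlap, 8.7% lower and 6.75% higher.

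Fancb encodes a subunit of the Fanconi core complex and showed the largest difference of any member. Its levels were 0.35, -0.054 and -0.19 on wild-type replicates 1 to 3, -1.11, -1.02 and -0.62 on the R882H arrays, and -0.97, -1.38 and -0.50 on the empty vector arrays. All wild-type arrays lay above all 6 others. R882H differed from wild-type DNMT3A by -0.95 ± 0.26 (SE) log2 units, a 1.93-fold lower signal (limma adjusted p = 0.537). Wild-type DNMT3A differed from empty vector by 0.98 ± 0.26 (adjusted p = 0.746 with limma), and R882H from empty vector by 0.033 ± 0.26. Within the slide that held both forms R882H differed by -0.94 (2 arrays each), and on the slide shared by empty vector and wild-type replicate 1 the latter was higher by 1.30. By the names of the authors' deposited value table the differences were -0.056 and 0.10. Those groups mixed arrays as given above, so these values do not check the others.

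The BRCA1-BARD1 and PALB2-BRCA2 genes had the lowest median of any role with more than 1 measured member in R882H minus wild type, -0.60, with 3 of 4 lower. Palb2, the bridge between BRCA1 and BRCA2, read -1.91, -1.11 and -1.40 on the wild-type arrays, -2.42, -1.77 and -2.32 on the R882H arrays and -1.81, -1.84 and -1.55 on the empty vector arrays. Wild-type replicate 1 lay below R882H replicate 2, so these groups overlapped. The difference of R882H from wild-type DNMT3A was -0.69 ± 0.25 (SE; limma adjusted p = 0.552). Brca2, which acts together with PALB2, read -0.40, -0.52 and -0.57 with wild-type DNMT3A and -1.09, -1.06 and -0.87 with R882H. With empty vector it read -1.17, -0.51 and -0.74, a range that overlapped both other groups. Its difference between R882H and wild type was -0.51 ± 0.19 (SE; limma adjusted p = 0.552). Brca1, a ubiquitin ligase subunit that promotes end resection, had the largest spread within groups of any member, a pooled SD of 0.55. It read -2.03, -1.23 and -2.90 with wild-type DNMT3A, -2.34, -2.97 and -3.12 with R882H and -2.48, -2.27 and -2.11 with empty vector. Its difference of -0.75 ± 0.39 between R882H and wild type had a 95% interval of -1.64 to 0.13. Bard1, whose product pairs with BRCA1, differed by 0.057 ± 0.20, and 1 of its 3 detected probes had the opposite sign.

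Of the Fanconi core complex 8 of 8 members were measured. By the brightest probe of each gene, all 8 means were higher with the wild-type enzyme than with the vector alone, with a median of 0.21, and 7 of 8 were lower with R882H than with wild type, with a median of -0.17. Fance, which links the core to FANCD2, read 3.51, 3.22 and 3.12 with wild-type DNMT3A, 2.69, 2.80 and 3.10 with R882H and 3.01, 2.93 and 3.01 with empty vector. The wild-type arrays lay above all others, with wild-type replicate 3 only just above R882H replicate 3. R882H differed from wild type by -0.42 ± 0.17 (SE; limma adjusted p = 0.593). A dimmer Fance probe, well above background on 7 arrays, differed by 1.01 in the opposite direction, and with the probes averaged the gene stood at 0.30. For wild type minus empty vector the dimmer probe also went the other way, at -1.02 against 0.30 for the brighter one, and the average stood at -0.36. Fancl, the ubiquitin ligase of the core, read 1.70, 1.12 and 0.86 with wild-type DNMT3A and 0.61, 0.97 and 0.65 with empty vector. The groups overlapped at wild-type replicate 3. Its difference was 0.48 ± 0.23 (SE; limma adjusted p = 0.860), and another Fancl probe differed by -0.022. For R882H minus wild type the brighter Fancl probe stood at -0.25. The other, well above background on 9 arrays, went the opposite way at 0.31. Fanca, Fancc, Fancf, Fancg and Fancm differed between R882H and wild type by -0.35 to 0.013, with SEs of 0.18 to 0.32. Fanci, partner of FANCD2, differed by -0.081 ± 0.23.

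The 4 measured genes of the group of Xrcc2, Xrcc3 and the RAD54 motors were all lower with R882H than with wild-type DNMT3A, with differences of -0.43 to -0.21. Xrcc3, which acts in the strand exchange step, read -1.31, -1.23 and -1.03 with wild-type DNMT3A, -1.43, -1.72 and -1.75 with empty vector and -1.73, -1.31 and -1.84 with R882H. Wild-type arrays lay above all empty vector arrays, while R882H replicate 2 lay level with wild-type replicate 1. Wild type differed from empty vector by 0.44 ± 0.19 (SE; limma adjusted p = 0.828) and R882H from wild type by -0.43 ± 0.19 (adjusted p = 0.613). Xrcc2, which acts in the same step, stood lower with R882H than with empty vector, at -0.58 ± 0.29 (adjusted p = 0.564 with limma). R882H replicates 1 to 3 read -2.65, -1.87 and -1.62, against -1.65 to -1.23 with empty vector, so replicate 1 lay far below the rest and replicate 3 overlapped. Rad54l and Rad54b, whose products are motor proteins that act on DNA, differed between R882H and wild type by -0.40 ± 0.22 and -0.21 ± 0.21.

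Among the helicases Blm, the Bloom syndrome helicase, read 2.26, 2.86 and 3.14 with R882H against 3.12 to 3.39 with wild-type DNMT3A and 3.05 to 3.28 with empty vector. R882H replicates 1 and 2 lay below all other arrays and replicate 3 lay among them. Its differences were -0.49 ± 0.23 from wild type and -0.44 ± 0.23 from empty vector, with limma adjusted p-values of 0.621 and 0.574. Brip1, a helicase bound by BRCA1, differed from wild type by -0.25 ± 0.25.

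Of the 5 break-sensing and resection genes, Mre11a, the nuclease of the complex, read 1.80, 1.53 and 1.66 with wild-type DNMT3A. It read 1.105, 1.51 and 1.41 with R882H and 1.503, 1.38 and 1.35 with empty vector, so the wild-type arrays again lay above all 6 others. Its differences were -0.32 ± 0.16 for R882H minus wild type and 0.25 ± 0.16 for wild type minus empty vector. Nbn, the third subunit, was the only member whose arrays did not overlap between R882H and empty vector. It read -0.88, -0.61 and -0.73 with R882H and -0.46, -0.50 and -0.086 with empty vector, a difference of -0.39 ± 0.18 (SE; limma adjusted p = 0.558). Of all genes 18.4% did not overlap in that comparison, 8.96% lower and 9.42% higher, so 1 of 32 is not above the background. Rad50, Rbbp8, which encodes CtIP, and the exonuclease gene Exo1 differed from wild type by -0.27, 0.091 and -0.31, with overlap in each.

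Checkpoint kinase genes had no common direction. For R882H minus wild type the 4 differences ran from -0.14 to 0.21, with 2 in each direction. Chek2, the effector kinase of ATM, read 0.84, -0.92 and 0.33 on the wild-type arrays, a wider range than the 0.16 to 0.55 of all 6 other arrays. Chek1, the effector kinase of ATR, read 0.22, -0.14 and -0.86 with empty vector against 0.11 to 0.27 with wild-type DNMT3A, a difference of 0.44 ± 0.25 in which empty vector replicate 3 lay far below the other arrays. Atm had the smallest spread of any member, a pooled SD of 0.13. It differed between R882H and empty vector by 0.090 ± 0.15, with a 95% interval of -0.25 to 0.43. For Atm, 1 of 2 detected probes had the opposite sign in each comparison. Atr, the kinase of stalled forks, differed by -0.083 ± 0.26 between R882H and empty vector.

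The end joining genes Prkdc, Xrcc5 and Xrcc6 encode the kinase and the Ku heterodimer that act in joining breaks without a template. They differed between R882H and wild type by 0.23, -0.24 and -0.21, with SEs of 0.17 to 0.28 and overlap in each. Msh6, a mismatch recognition subunit, read 3.59, 3.54 and 3.03 with wild-type DNMT3A, 3.06, 2.97 and 2.91 with R882H and 2.99, 3.18 and 3.00 with empty vector. Wild-type replicates 1 and 2 lay above all other arrays and replicate 3 among them. R882H differed from wild type by -0.41 ± 0.18 (SE; limma adjusted p = 0.620).

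**Figure D2:**
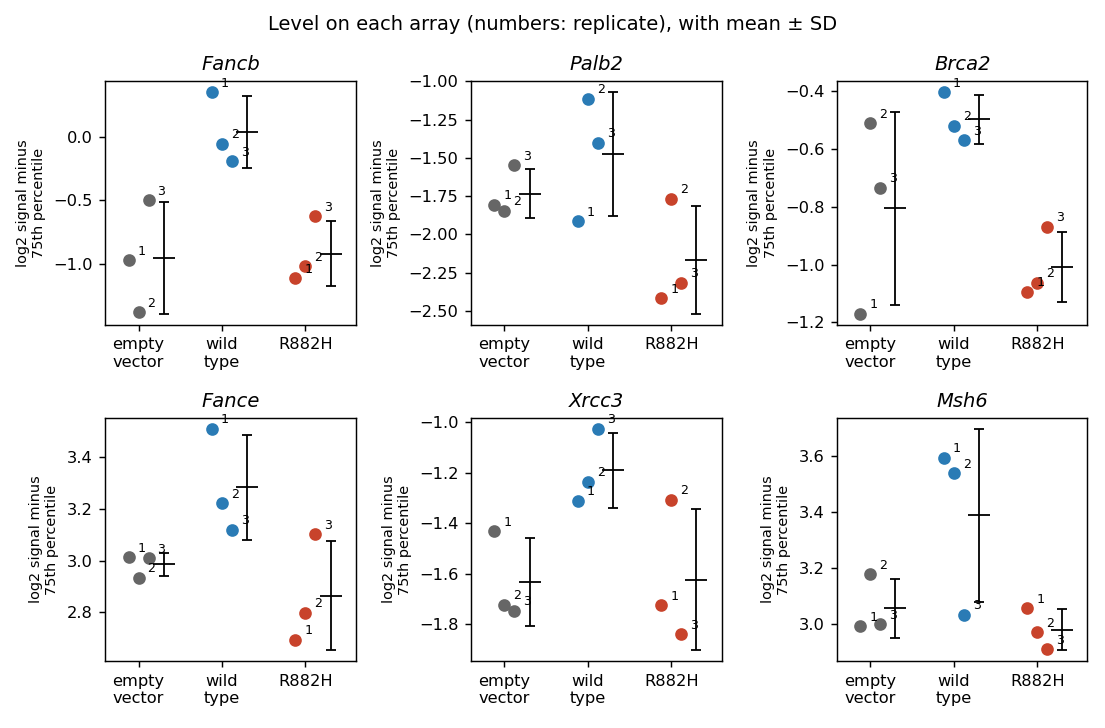
Levels (log2 signal minus the array's 75th percentile, y axes of different range) of Fancb, Palb2, Brca2, Fance, Xrcc3 and Msh6 on each array, coloured by group and numbered by replicate, with the group mean and SD as black bars. Wild-type arrays lie above all R882H arrays for Fancb, Brca2 and Fance, and the groups overlap for the other genes.

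Against the vector alone, R882H showed no member past even the unadjusted threshold. With limma 0 of 32 members had an unadjusted p under 0.05, where 9.05% of all genes did, 3.54% lower and 5.51% higher. Without R882H replicate 3 the count was 2, and without R882H replicate 2 or wild-type replicate 3 it was 1. The median of the members was -0.0017 without R882H replicate 1 and -0.10 without empty vector replicate 3. The 4 members of smallest p were Nbn, Xrcc2 and Blm, given above, and Palb2, at -0.43 ± 0.25 (adjusted p = 0.586). All 32 of the 95% intervals included 0, with a median half-width of 0.52 log2 units, and 29 of 32 lay within 1 log2 unit of 0. With the array median in place of the 75th percentile, which moved the median of all genes to -0.17, 29 of 32 members and 68.6% of all genes were lower. No slide held both of these groups, so a slide block compares them only through the wild-type arrays. With slide as a block the median was 0.027.

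Wild-type DNMT3A set against empty vector addresses the added normal enzyme. With limma 2 of 32 members had an unadjusted p under 0.05, Fancb and Xrcc3, both higher with wild-type DNMT3A, where 5.95% of all genes met it, 3.5% higher and 2.45% lower. Without wild-type replicate 2 or R882H replicate 1 the count was 1. With replicate number as a block only Fancb did. Arrays did not overlap for 4 members, Xrcc3, Fancb, Fance (by its brighter probe) and Mre11a, all higher, against 10.1% of all genes without overlap, 5.66% higher and 4.4% lower. After Fancb, Xrcc3 and Fancl, the next smallest p was that of Msh6, at 0.33 ± 0.18 (adjusted p = 0.874). Without wild-type replicate 3 the median of the members was 0.21, and within the slide of the empty vector arrays wild-type replicate 1 stood 0.26 above them, with 23 of 32 members higher.

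**Figure D3:**
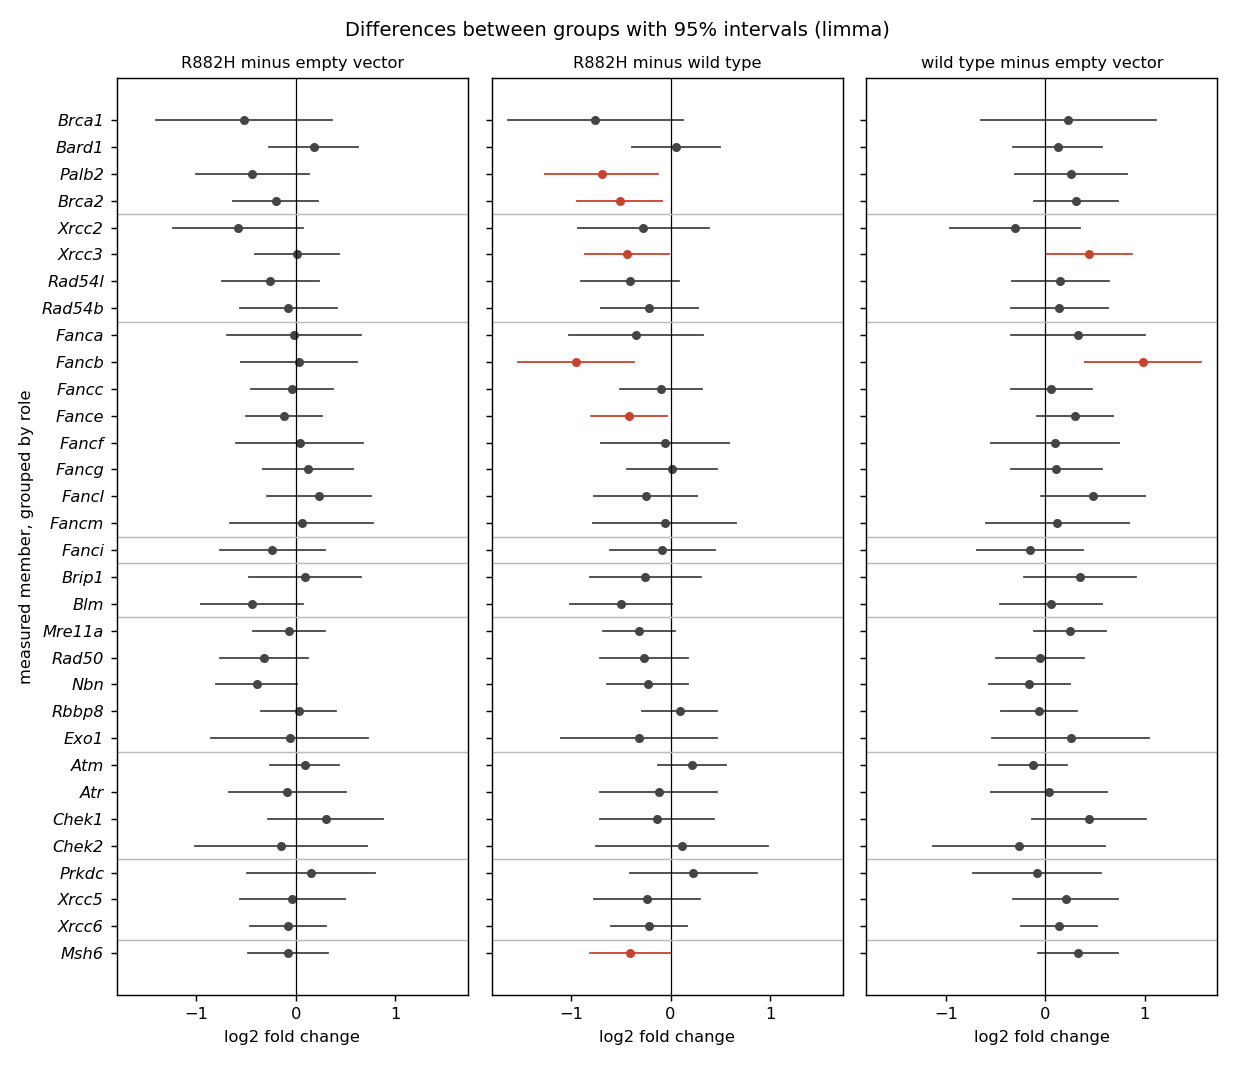
Log2 fold change of each measured member (rows, by role) in the 3 comparisons (panels), as points with 95% intervals from limma. Red marks the members with an unadjusted p under 0.05, which are 0, 6 and 2 from left to right, and no member passed after adjustment.

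Other genes of these pathways, 66 listed and 65 measured, were read in the same way, and with limma none passed after adjustment. For R882H minus wild type 44 of 65 were lower, with a median of -0.14 and 5 with an unadjusted p under 0.05, all lower, beside the 8.04% of all genes given above. Among those of smallest p were Cdc25a, the phosphatase that CHK1 restrains, at -0.44 ± 0.16 and the resection nuclease Dna2 at -0.41 ± 0.16. For wild type minus empty vector 36 of 65 were higher, with a median of 0.054, and 5 higher and 1 lower had an unadjusted p under 0.05, where 5.95% of all genes did. Rad1 of the checkpoint clamp stood at 0.99 ± 0.26, Cdc25a at 0.52 ± 0.16 and the ubiquitin ligase gene Rnf8 at 0.45 ± 0.15. For R882H minus empty vector 43 of 65 were lower, with a median of -0.057, and 1 higher and 1 lower had an unadjusted p under 0.05, where 9.05% of all genes did. The checkpoint activator gene Etaa1 stood at -0.60 ± 0.21, and the end joining factors Nhej1 and Xrcc4 at 0.52 ± 0.22 and 0.81 ± 0.36.

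Many of these genes are transcribed mainly in cycling cells, so lists of 32 DNA replication and 28 measured mitosis genes were set beside them. For R882H minus wild type their medians were -0.14 and -0.22, with 29 of 32 and 24 of 28 lower. For R882H minus empty vector they were -0.19 and -0.17, with 28 of 32 and 22 of 28 lower. For wild type minus empty vector they were -0.0054 and 0.053. Of 5 bins of all genes by level, the dimmest had a median of 0.21 and the brightest -0.12 for R882H minus empty vector. For R882H minus wild type these bins had medians of 0.13 and -0.072. The part of level in the differences of the lists was not tested. The highest array of the mitosis list was wild-type replicate 3, at 0.24, which was the lowest wild-type array for the repair and checkpoint members. Mki67, the proliferation marker, ran against its list in both comparisons with wild-type DNMT3A. Its difference was the highest of the 28 genes for R882H minus wild type, 0.31 ± 0.24. For wild type minus empty vector it was the lowest, -0.49 ± 0.24. Mki67 had levels of 4.78 ± 0.45 with wild-type DNMT3A, 5.08 ± 0.16 with R882H and 5.27 ± 0.25 with empty vector (SD, n = 3). It was thus lower with R882H than with empty vector, as were most genes of its list. The part of cell cycling in the differences was not tested.

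**Figure D4:**
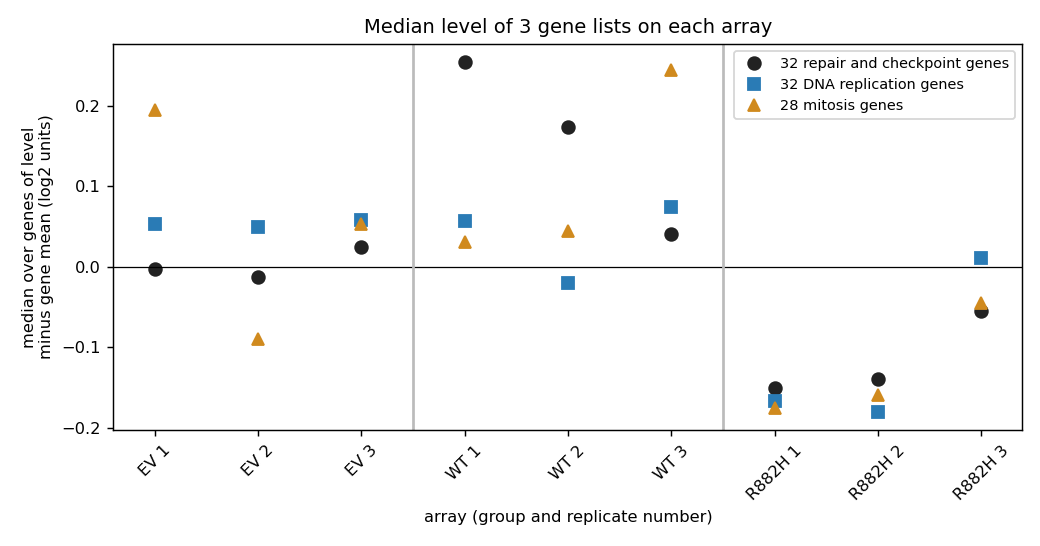
Median over the genes of each list of level minus gene mean (y axis, log2 units) on each array (x axis), for the repair and checkpoint members (circles), DNA replication genes (squares) and mitosis genes (triangles). The members are highest on wild-type replicate 1, at 0.25, and all lists are below 0 on R882H replicates 1 and 2.

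Marker lists of other cell types were read on the same arrays. Summed levels (log2 of the sum over the list) of 11 measured granulocyte and monocyte genes were 6.89 to 7.94 with R882H, 7.77 to 8.92 with wild-type DNMT3A and 7.48 to 9.29 with empty vector. Those of 12 stem cell genes were 5.31 to 5.76, 4.38 to 5.33 and 4.197 to 5.33 in the same order. Those of 7 megakaryocyte genes were 3.81 to 5.002, 2.94 to 3.42 and 2.79 to 4.06, those of 9 erythroid genes 5.23 to 5.39, 4.83 to 5.20 and 4.87 to 5.74, those of 7 B lineage genes 2.25 to 3.51, 0.81 to 2.503 and 0.85 to 1.56, and those of 6 T and NK genes 5.44 to 5.55, 5.57 to 6.10 and 5.68 to 6.10. A sum is carried by the brightest genes of a list: of the 6 T and NK genes 5 had higher means with R882H than with empty vector (median 0.27), and 5 than with wild type (median 0.15). Of the listed markers, Igll1 and Ebf1 of the B lineage and Cd3g and Cd8a of T cells had no measured probe, among others. Their part in the differences was not tested, and in these bulk samples fewer cells of a type and less RNA per cell cannot be told apart. Replicate 3 had the highest granulocyte and monocyte value of each group. Without number 3 in any group the median of the members was -0.29 for R882H minus wild type, 0.18 for wild type minus empty vector and -0.065 for R882H minus empty vector.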

How the data were processed

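RNA of 9 samples was amplified from 3.67 ng of total RNA and hybridised with 1 colour, Cy3, to Agilent mouse arrays, per the labels' protocols. Per the file headers the scans of array design 28005 were read by Agilent Feature Extraction, version 10.10.1.1. The intensity the authors deposited per spot was background-subtracted and spatially detrended, per the file headers, and it lay beside the median pixel intensity, the local background and calls for signal above background. The deposited value table held log2 values of 41854 probes, relative to the array's 75th percentile and centred on each probe's median, as its columns showed when set against the arrays. The labels do not state how the authors made it. Its column medians were 0 except for -0.00211 under empty vector replicate 3.

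Outlier spots (154 to 184 per array) were left out, no spot was saturated, and 53.4% to 64.8% of 55681 probes were well above background, which with the number of arrays limits the precision. From each log2 processed intensity its array's 75th percentile was taken off, and replicate spots were averaged. Probes were named by RefSeq accession (27235 with a symbol, 28446 without, none with several). Groups were compared with limma 3.58.1 in R 4.3.3 (lmFit and eBayes on all 9 arrays, 6 residual and 2.81 prior degrees of freedom), tested on simulated data first, and adjusted p-values under 0.05 were called. The 34 members, the lists and the rules were chosen with earlier results of these data known. Members are given by role, with the 4 of smallest p per comparison and the 3 of smallest p among other pathway genes, of which 1 is not reported here. Same-numbered deviations correlated at 0.116, 0.222 and 0.323 between wild-type DNMT3A and empty vector, all above 0.1, so the numbers may pair these samples, although no label says so. The values reported come from the fit without a block, and the replicate block was an alternative. Between R882H and empty vector the same correlations were 0.0885, 0.198 and 0.278 for replicates 1 to 3. Between R882H and wild-type DNMT3A they were 0.0720, 0.137 and 0.239, so in both only replicate 1 lay under 0.1. Alternatives covered scaling, normalization, background, filter, probe rule, blocks, weights, the value table and leaving out arrays.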

Additional observations from a re-analysis of the deposited data

How the results depend on the processing

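No gene passed after adjustment under any of the 22 to 23 alternatives per comparison, and the smallest adjusted p of a member was 0.263. The median of the members for R882H minus wild type was -0.33 with the array median, -0.32 with array weights and 0.025 by the names of the authors' value table. Without 1 array each it ran from -0.28 to -0.16, and 2 to 7 members had an unadjusted p under 0.05. The 7, without wild-type replicate 3, were 6 lower and 1 higher (Prkdc). The count of such members, 6 in the report, was 3 with only the 2 groups and 3 by the value table (Brca1, Fanci and Fancm). It was also 3 within the slide that held both groups, a setting chosen after seeing the data. Fance stood at 0.30 with a gene's probes averaged. By the value table, whose groups mixed arrays as given above, Xrcc3 and Fance stood at 0.18 and 0.033. For wild type minus empty vector Xrcc3 stood there at -0.087.

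For R882H minus empty vector the median was -0.22 with the array median and 0.027 with slide as a block. Without 1 array each it ran from -0.10 to -0.0017, with 0 to 2 members under the unadjusted threshold. That count, 0 in the report, was 4 with the array median (Blm, Nbn, Palb2 and Xrcc2). With cyclic loess it was 3 (Nbn, Palb2 and Xrcc2), as with array weights (Blm, Nbn and Xrcc2). With slide as a block it was also 3 (Fancl, Palb2 and Xrcc2), 1 higher and 2 lower. The count was 2 with quantile normalization (Nbn and Xrcc2) and by the value table (Brca1 and Fanci). With the replicate block (Nbn) and without number 3 (Blm) it was 1. For wild type minus empty vector the median was 0.26 with slide as a block and within the slide of the empty vector arrays, a setting chosen after seeing the data, and -0.049 by the value table. Without 1 array each it ran from 0.10 to 0.21, with 1 to 3 members. The count, 2 in the report, was 1 (Fancb) with the array median, quantile normalization, cyclic loess, no filter on dim probes and the replicate block. By the value table it was 2, but of other members, Fancm and Rad50, 1 higher and 1 lower. The replicate block moved no other count of members by over 1.5 times.

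Fancb kept its direction in all 23 alternatives in both comparisons with wild-type DNMT3A. Its unadjusted p was under 0.05 in 22, the exception being the value table, whose groups mixed arrays. The cause of these changes was not tested. The 95% intervals of the members had a median half-width of 0.52 log2 units, and even Fancb at -0.95 did not pass after adjustment, so differences of that size could go uncalled here.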
